A study of Zea mays with 6 samples.

Results

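Glyceraldehyde-3-phosphate dehydrogenase (GAPDH) is encoded in maize by a small family whose proteins work in different compartments of the cell. The 6 genes described here are 4 genes for the cytosolic enzyme and 2 for a plastidic enzyme, out of 39628 gene models measured, and they were chosen by gene ID. The cytosolic genes are gpc1 (GRMZM2G046804, also GAPC), gpc2 (GRMZM2G180625, also GAPC2), gpc3 (GRMZM2G071630, also GAPC3) and gpc4 (GRMZM2G176307). The plastidic genes are gpa1 (GRMZM2G337113, also GAPA) and GRMZM2G162845, which matched no record of the name table, so its assignment to the plastid rests on the selection alone.

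GAPDH takes part in both glycolysis and photosynthetic carbon fixation. In glycolysis, the cytosolic enzyme (GAPC) oxidises glyceraldehyde-3-phosphate with NAD and yields a compound from which ATP is made. In the Calvin cycle, the plastidic enzyme of GAPA and GAPB subunits runs the reaction in the reducing direction with NADPH, and in maize leaves this reduction is shared between mesophyll and bundle sheath cells. GAPC is among the genes most often taken as a reference in expression measurements, on the premise that its level varies little. In maize, gpc3 and gpc4 are known as the copies whose transcripts increase under low oxygen, while gpc1 and gpc2 are known as the constitutive copies.

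Leaves of field-grown maize at the stage of 6 leaves were compared between the transgenic line L100 and the inbred Q319 as wild type, with 3 libraries per group. The transgene, its promoter and the number of transformation events behind L100 are not given in the sources used here, which leaves no expected change to check the label against. Whether the libraries of 1 line are separate plants or plots is not stated, and p-values then reflect only the spread between these samples, which may be technical. The series states no purpose beyond an examination of both lines; the comparisons are the difference between the lines for each copy and the spread of each copy over libraries.

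Total counts were between 6458248 and 7536583 in L100 and between 8320337 and 9922468 in wild type. The labelled tissue was checked by marker genes. Summed CPM of 8 mesophyll markers, among them pep1 and pdk1 of the C4 cycle, ran from 102549 to 123455 in L100 and from 64804 to 97449 in wild type, with none at 0. For 4 bundle sheath markers the sums ran from 21501 to 27436 CPM in L100 and from 14134 to 22993 CPM in wild type. Of 7 endosperm markers o2, zp1 and zp27 were at 0 in all libraries, and the 7 summed to between 47.9 and 68.0 CPM in L100 and between 39.0 and 115 CPM in wild type, most of it from the sucrose synthase gene sh1. The 2 meristem markers summed to at most 0.325 CPM in any library, and the 2 root markers to at most 1.14 CPM in L100 and 6.79 CPM in wild type, with rtcs1 at 0. The mesophyll sums did not overlap between the lines, but most of each sum came from pep1 and pdk1. Only these genes of the 8 were without overlap, while mdh6 and the lhcb genes of the antenna overlapped. Whether this bears on the GAPDH genes was not tested. In such bulk samples, fewer cells of a type and less RNA per cell cannot be told apart. Wild type replicate 3 had the lowest mesophyll and bundle sheath sums of all libraries. There lhcb3 was at 786 CPM, lhcb5 at 802, lhcb6 at 986 and lhcb7 at 747 CPM. The lowest values in the other libraries were 6159, 2462, 2229 and 6424 CPM, in that order. In the same library lhcb4 (682 CPM) lay within the range of the others, and mdh6 (3977 CPM) lay above it. The cause was not tested.

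The levels of the copies covered a wide range. Here CPM is the usual count normalised to library size, with sizes scaled by TMM to the bulk of the genes, and levels are compared between genes as CPM per kilobase of the gene length in the tables. By this measure gpa1 stood at 5668 ± 639 in L100 and 4707 ± 816 in wild type (SD, n = 3 each), and only 18 of the 39628 gene models had a higher mean. The cytosolic gpc1 followed with 1180 ± 180 CPM per kilobase in L100 and 1054 ± 70.0 in wild type, then gpc2 with 1074 ± 201 in L100 and 838 ± 169 in wild type. Far below them were gpc3, at 139 ± 41.1 CPM per kilobase in L100 and 29.0 ± 20.6 in wild type, and gpc4, at 65.3 ± 18.6 in L100 and 15.4 ± 10.5 in wild type. The mean level of gpa1 was 4.64 times that of gpc1, and the mean level of gpc2 was 11.4 times that of gpc3, and in both pairs the ranges over the 6 libraries were apart. The ranges of gpc1 and gpc2 overlapped, as did those of gpc3 and gpc4. The tables' lengths are multiples of 3 for gpc3, gpc4 and GRMZM2G162845 but not for gpc1, gpc2 and gpa1, so the lengths are not coding lengths throughout.

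The second plastidic gene, GRMZM2G162845, was hardly read in these leaves. It had 2.10, 0.649 and 2.09 CPM in L100 replicates 1 to 3, against 2.16, 0 and 2.85 CPM in wild type replicates 1 to 3. The count of 0 in wild type replicate 2 allows a level of up to 0.383 CPM, the floor of 3 counts in that library on the same TMM scale. The groups overlapped, and its log2 fold change of -0.08 ± 0.999 (SE) had a 95% interval from -2.39 to 2.24 and an edgeR adjusted p of 0.988, so a difference in either direction was not detectable at this depth. Of the summed level of these 2 plastidic genes, practically all came from gpa1; gpb1, for the other subunit of the chloroplast enzyme, is given further on.

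**Figure D1:**
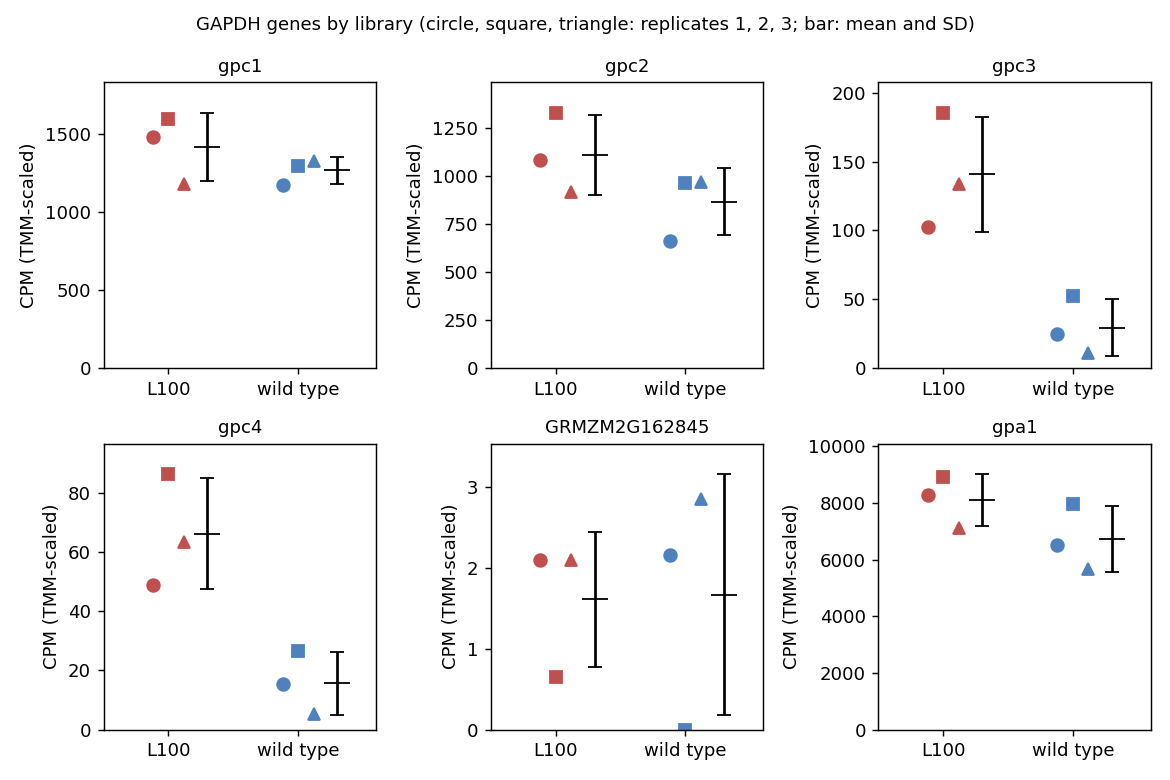
Level of each of the 6 GAPDH genes in each library, in CPM on TMM-scaled library sizes (vertical axis from 0, a scale of its own in each panel), with L100 left of wild type; circles, squares and triangles are replicates 1, 2 and 3, and bars give the mean and SD. The L100 libraries lie above every wild type library for gpc3 and gpc4, and the groups overlap in the other 4 panels.

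The question of the comparison between lines is which copies differ in level between L100 and wild type leaves. The abundant copies gpc1, gpc2 and gpa1 overlapped between the lines, and the scarce cytosolic copies gpc3 and gpc4 were higher in every L100 library than in any wild type library. None of the 6 passed edgeR's quasi-likelihood test over 18702 tested genes at an adjusted p of 0.05, where 0.834% of all tested genes passed. At an unadjusted p under 0.05 there were 2 of the 6, gpc3 and gpc4, against 10.04% of all tested genes. DESeq2 called both as higher in L100, as it did 1.49% of all tested genes, and limma-voom called neither.

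The transcript of gpc3 was at 103, 185 and 134 CPM in L100 replicates 1 to 3, against 24.7, 52.3 and 11.3 CPM in wild type replicates 1 to 3. The highest wild type library, replicate 2, lay below the lowest L100 library, replicate 1. The log2 fold change was 2.26 ± 0.55 (SE), a fold of 4.79 with a 95% interval from 1.99 to 11.5, and the edgeR adjusted p was 0.151. DESeq2 gave an adjusted p of 0.00256.

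For gpc4 the values were 48.8, 86.2 and 63.5 CPM in L100 replicates 1 to 3, against 15.3, 26.5 and 5.19 CPM in wild type replicates 1 to 3. The order of the libraries within each line was that of gpc3. The log2 fold change was 2.09 ± 0.55 (SE), a fold of 4.25 with a 95% interval from 1.76 to 10.2, with an edgeR adjusted p of 0.201 and a DESeq2 adjusted p of 0.00974. Libraries of the lines did not overlap, with L100 higher, in 7.69% of all tested genes, and a log2 fold change of at least 2 was reached by 1.36% of them. The edgeR call of gpc3 depended on wild type replicate 2: without it the log2 fold change was 2.97 and the adjusted p 0.0432. Calls rose over the whole table in that setting, to 222 of 19345 tested genes, against 156 of 18702 with all libraries. Without wild type replicate 3, the lowest library for both genes, the log2 fold changes were 1.87 for gpc3 and 1.67 for gpc4, with edgeR adjusted p of 0.119 and 0.115.

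**Figure D2:**
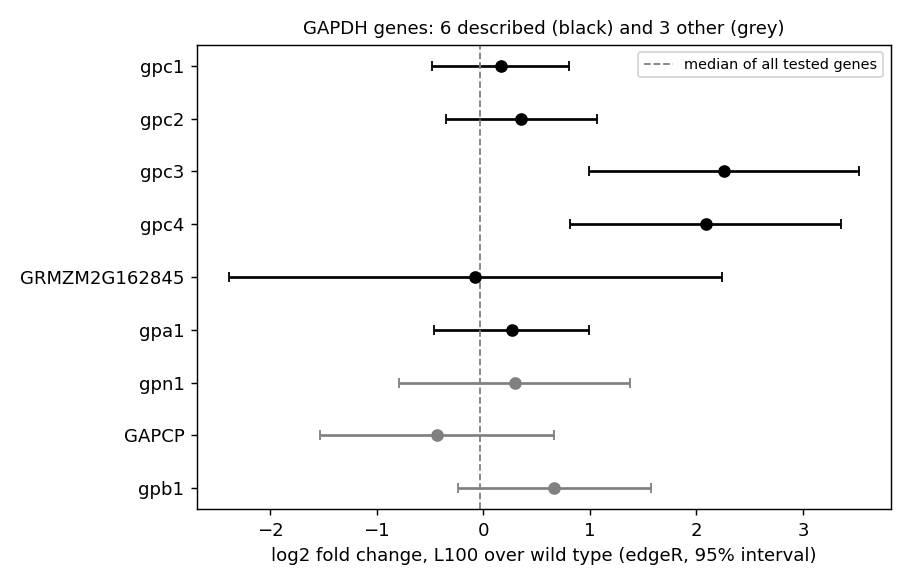
Log2 fold change of L100 over wild type (horizontal axis, edgeR) with its 95% interval for the 6 GAPDH genes in black and for 3 other GAPDH genes of the name table in grey; the dashed line is the median of all tested genes, -0.03. The intervals of gpc3 and gpc4 lie above 0, and all others include 0.

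The estimates for the abundant copies were closer to 0. The level of gpc1 was 1477, 1597 and 1177 CPM in L100 replicates 1 to 3, against 1170, 1297 and 1329 CPM in wild type replicates 1 to 3. All libraries fell within a factor of 1.36 of each other, and L100 replicates 1 and 2 lay above the wild type libraries while replicate 3 lay among them. The log2 fold change was 0.16 ± 0.28 (SE, edgeR adjusted p = 0.891), and its 95% interval, as a fold, ran from 0.716 to 1.75; scaled by library totals alone it was -0.07, a change of sign. That scaling moved the median log2 fold change of all tested genes to -0.26, against -0.03 with TMM, and relative to that median gpc1 stayed above it.

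The level of gpc2 was 1083, 1329 and 917 CPM in L100 replicates 1 to 3, against 665, 964 and 969 CPM in wild type replicates 1 to 3. Wild type replicate 1 was the lowest library, and L100 replicate 3 lay below wild type replicates 2 and 3. The log2 fold change was 0.36 ± 0.31 (SE, edgeR adjusted p = 0.753), with a 95% interval as a fold from 0.785 to 2.09.

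The plastidic gpa1, for the A subunit of the Calvin cycle enzyme, was at 8283, 8907 and 7108 CPM in L100 replicates 1 to 3, against 6517, 7983 and 5679 CPM in wild type replicates 1 to 3. The lines overlapped through L100 replicate 3 and wild type replicate 2. The log2 fold change was 0.27 ± 0.31 (SE, edgeR adjusted p = 0.824), with a 95% interval as a fold from 0.727 to 1.99. For these 3 genes the interval therefore does not reach as far as the estimates of gpc3 and gpc4, but it is wide enough to hold moderate changes in either direction.

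Whether the scarce copies differed from the abundant ones in their response can be read from ratios within a library, which need no scaling between libraries. The count ratio of gpc1 to gpc3 was 14.4, 8.62 and 8.79 in L100 replicates 1 to 3, against 47.3, 24.8 and 117 in wild type replicates 1 to 3. The log2 ratio was lower in L100 by a difference of -2.33, with groups apart. Of 10 pairs formed among the 5 genes other than GRMZM2G162845, the 6 that set gpc3 or gpc4 against gpc1, gpc2 or gpa1 had groups apart and an exact permutation p of 0.1, two-sided, the smallest that 3 against 3 libraries allow; adjusted over the 10 pairs this was 0.167. The 4 other pairs overlapped between the lines, with exact permutation p of 0.2 to 0.8. The pairs share genes, and gpc3 and gpc4 followed each other over the libraries, so the 6 pairs are not separate results.

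Of the summed cytosolic counts, gpc3 and gpc4 together held 5.59%, 8.49% and 8.62% in L100 replicates 1 to 3, against 2.14%, 3.36% and 0.713% in wild type replicates 1 to 3. The mean share was 7.57 ± 1.72% in L100 and 2.07 ± 1.33% in wild type (SD, n = 3 each, exact permutation p = 0.1, two-sided). The exact 95% counting intervals of single libraries, from 5.27% to 9.09% in L100 and from 0.617% to 3.64% in wild type, were each narrower than the range over the libraries of a line and cover counting error only. The share of gpc1 was 51.9 ± 2.31% in L100 and 58.4 ± 3.59% in wild type, also without overlap (exact permutation p = 0.1), and that of gpc2 was 40.5 ± 0.916% in L100 and 39.5 ± 3.52% in wild type (exact permutation p = 0.9). These shares are parts of the same sum, so a larger share of gpc3 and gpc4 leaves less for gpc1 and gpc2 together. The share of gpc1 is thus no separate result. Its mean level was 1417 CPM in L100 and 1265.5 CPM in wild type, and its ratio to gpc2 overlapped between the lines (exact permutation p = 0.2).

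**Figure D3:**
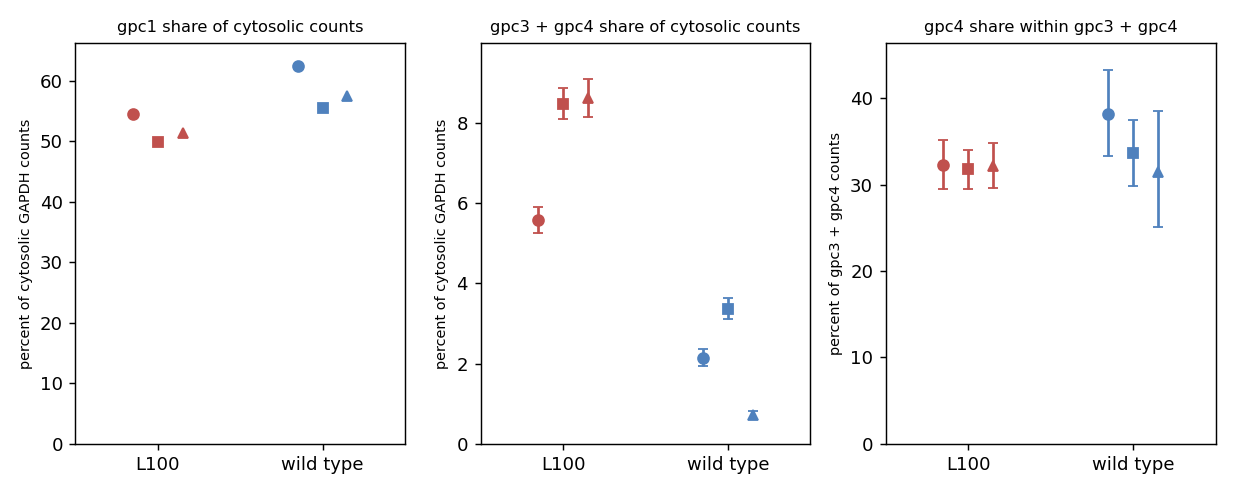
Shares of counts by library, in percent from 0, with L100 left of wild type; circles, squares and triangles are replicates 1, 2 and 3, and the bars in the middle and right panels are exact 95% counting intervals. The share of gpc3 with gpc4 is between 5.59% and 8.62% in L100 and at most 3.36% in wild type, while gpc4 as a share of the pair lies between 31.5% and 38.2% in all libraries.

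The levels of gpc3 and gpc4 followed each other over the libraries. Their ratio was 2.10, 2.15 and 2.11 in L100 replicates 1 to 3, against 1.62, 1.98 and 2.18 in wild type replicates 1 to 3, and the lines overlapped. The SD of the log2 ratio over 6 libraries was 0.162, the smallest of the 10 pairs, followed by gpc1 with gpc2 (0.187) and gpc1 with gpa1 (0.189). Across the 6 libraries the Pearson correlation of log2 CPM was 0.995 between gpc3 and gpc4, 0.889 between gpc1 and gpc2 and 0.429 between gpc1 and gpc3, as a description over libraries that include both lines. Copies of this family are similar in sequence, and the tables do not say how reads matching several copies were assigned, so the split of counts between gpc3 and gpc4, and between gpc1 and gpc2, is uncertain while their sums are less so.

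The log2 ratio of plastidic to cytosolic level, each summed per gene length, was 1.21 ± 0.09 in L100 and 1.28 ± 0.28 in wild type (SD, n = 3 each). The difference of -0.06 was smaller than the spread between wild type libraries (exact permutation p = 0.8, two-sided) and changed sign in 4 of the settings tried. In wild type replicate 3 the ratio was 0.95, against 1.46 and 1.42 in the other wild type libraries.

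The spread of each copy over all 6 libraries was measured to compare the copies as reference genes. The SD of log2(CPM + 0.5) was 0.18 for gpc1, 0.24 for gpa1, 0.33 for gpc2, 1.0496 for GRMZM2G162845, 1.46 for gpc4 and 1.53 for gpc3, against a median of 0.45 over all tested genes. Coefficients of variation were 12.6% for gpc1, 16.2% for gpa1, 22.0% for gpc2, 75.5% for gpc4 and 79.6% for gpc3. A smaller SD than that of gpc1 was found in 5.26% of tested genes and in 4.58% of the 131 genes whose mean was within a factor of 2 of its own. For gpa1 it was 13.99% of tested genes and none of the 21 genes of similar level, and for gpc2 it was 29.5% and 26.2% of 168. For gpc3 and gpc4, 97.2% and 96.8% of tested genes had a smaller SD, which places both near the most variable end of the tested genes. This SD includes the difference between the lines. Pooled within the lines it was 0.82 for gpc3 and 0.86 for gpc4, against 0.18 for gpc1, 0.21 for gpa1 and 0.29 for gpc2.

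The order of the copies by spread depended in part on scaling and libraries. Over 14 settings gpc1 had the smallest SD in 11 and gpa1 in 3, and the SDs of gpc3 and gpc4 were above those of gpc1, gpc2 and gpa1 in all 14. The 14 include L100 alone and wild type alone, both added once the data had been looked at. The SD of the scarcely read GRMZM2G162845 was also above those of gpc1, gpc2 and gpa1 in all 14, and in 3 of them it exceeded gpc3 or gpc4. It was 0.678 within L100 alone and 1.497 within wild type alone, above both, and 1.07 without wild type replicate 3, above the 0.989 of gpc4. With library totals in place of TMM, gpa1 had an SD of 0.0836 and gpc1 of 0.174. Without wild type replicate 3 the values were 0.180 for gpa1 and 0.199 for gpc1, and within the L100 libraries alone (added once the data had been looked at) 0.166 for gpa1 and 0.229 for gpc1. Within wild type alone, also added then, the SD was 0.0975 for gpc1 and 0.247 for gpa1. The SD of gpc3 was 0.42 within L100 and 1.08 within wild type, and that of gpc4 was 0.41 within L100 and 1.14 within wild type, so both varied more between wild type libraries than gpc1 did over all 6.

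Constancy can also be read from ratios between the copies, by the mean SD of the log2 count ratio of a copy to each of the others, GRMZM2G162845 left out. By this measure gpa1 had the smallest mean with 0.773, followed by gpc2 with 0.800, gpc1 with 0.827, gpc4 with 1.07 and gpc3 with 1.10. The order of gpc1, gpc2 and gpa1 thus differed between this measure and the SD of log2 CPM. Their means rest mostly on the ratios to gpc3 and gpc4, whose SDs ran from 1.30 to 1.48. They therefore show mainly how closely a copy followed gpc3 and gpc4. Among gpc1, gpc2 and gpa1 alone the SD was 0.187 for gpc1 with gpc2, 0.189 for gpc1 with gpa1 and 0.255 for gpc2 with gpa1.

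The copies were set beside other genes from families usually taken as references, by the SD of log2(CPM + 0.5). Among 26 genes, the 6 GAPDH genes and 20 tested genes of actin, tubulin, elongation factor 1-alpha and ubiquitin conjugation, the SD of gpc1 was the second smallest, after ubc7 (GRMZM2G012052, a ubiquitin-conjugating enzyme) with 0.15. The next was act1 (GRMZM2G126010, an actin) with 0.23, and gpa1 ranked at 5 and gpc2 at 7. The ranks of gpc4 and gpc3 were 23 and 25. The list of reference genes spanned SDs from 0.15 to 1.89 with a median of 0.63, above that of all tested genes. It took in copies of these families by symbol, whether or not a copy serves as a reference, and 20 of its 23 genes were tested. Scarce copies were among them, such as the actin genes GRMZM2G006765 (mean 12.8 CPM, SD 1.89) and GRMZM2G053284 (mean 2.26 CPM, SD 0.37), against 1341 CPM for gpc1. The ranks therefore do not compare gpc1 with references of its own level. No tested gene of the list was called by edgeR, DESeq2 or limma-voom. Higher in L100 were 15 of 20, against 47.6% of all tested genes (median log2 fold change 0.43, against -0.03 over all tested genes). At an unadjusted p under 0.05 there was 1 of 20, a smaller share than the 10.04% of all tested genes. It was, named after its values were seen, the alpha-tubulin gene tua4 (GRMZM2G152466), at 152 ± 8.78 CPM in L100 and 47.6 ± 32.4 CPM in wild type. The most abundant of the list were EF1A (GRMZM2G153541), at 394 ± 84.6 CPM in L100 and 291 ± 78.1 CPM in wild type, and elfa3 (GRMZM2G154218), at 368 ± 69.1 CPM in L100 and 217 ± 90.0 CPM in wild type.

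**Figure D4:**
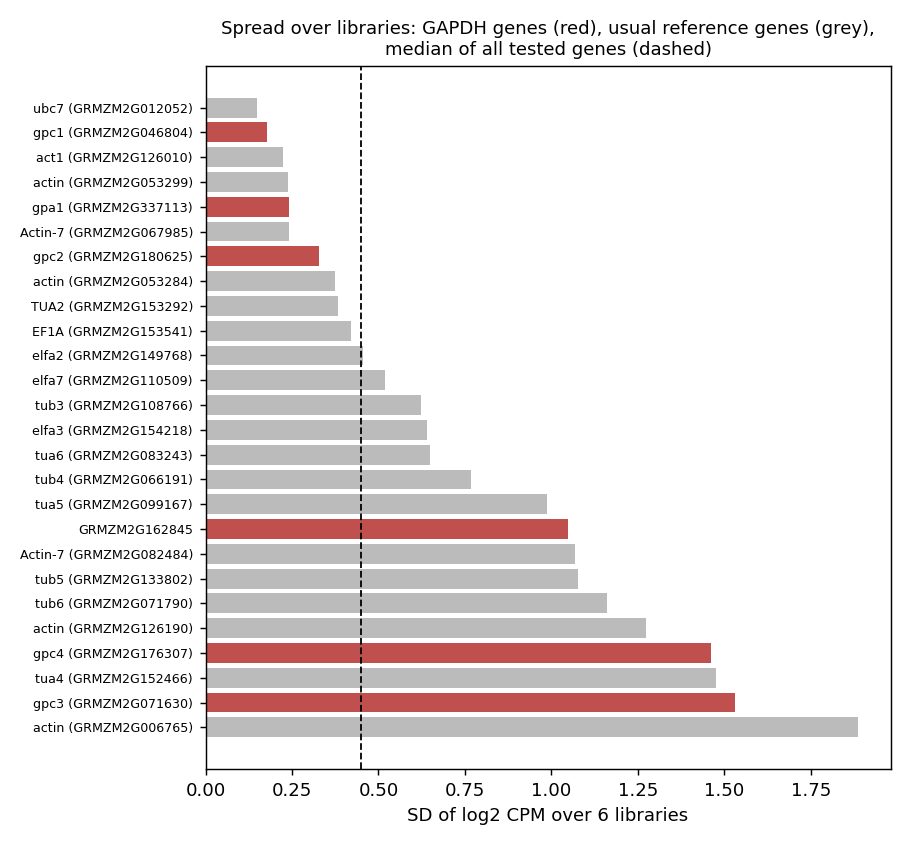
SD of log2(CPM + 0.5) over the 6 libraries (horizontal axis from 0) for the 6 GAPDH genes in red and 20 genes from families usually taken as references in grey, in rising order from the top. The dashed line is the median of all tested genes, 0.45. The bars of gpc1, gpa1 and gpc2 end left of the line, and those of GRMZM2G162845, gpc4 and gpc3 end far right of it.

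The choice of copy sets the zero point of any level expressed relative to it. Relative to gpc1, the median tested gene had a log2 difference, L100 minus wild type, of -0.15, relative to gpa1 of -0.27 and relative to gpc2 of -0.36, where TMM scaling gave 0.01. Relative to gpc4 the median was -2.27 and relative to gpc3 it was -2.45. With gpc3 as the reference 0.984% of tested genes would appear higher in L100, against 36.7% with gpc1 and 50.6% with TMM scaling.

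Other GAPDH genes of the name table were set beside these copies. The gene gpb1 (GRMZM5G845611), for the B subunit that joins GAPA in the chloroplast enzyme, was at 10974 ± 2709 CPM in L100 and 6911 ± 2528 CPM in wild type (log2 fold change 0.67 ± 0.39, edgeR adjusted p = 0.644). The ratio of gpa1 to gpb1 per gene length was 0.725, 0.611 and 0.803 in L100 replicates 1 to 3, against 1.13, 0.767 and 0.983 in wild type replicates 1 to 3, which overlapped (exact permutation p = 0.2). The gene gpn1 (GRMZM2G035268), for the non-phosphorylating enzyme that makes NADPH in the cytosol, was at 190 ± 37.8 CPM in L100 and 155 ± 94.5 CPM in wild type. The gene GAPCP (GRMZM2G104632), named after the glycolytic enzyme of plastids, was at 14.2 ± 8.40 CPM in L100 and 19.2 ± 0.890 CPM in wild type. None of the 3 was called by edgeR, DESeq2 or limma-voom, and none had an unadjusted p under 0.05.

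Among neighbouring steps of both pathways no gene passed the test. Of 11 other glycolysis genes 10 were tested, 5 of them higher and 5 lower in L100; their median log2 fold change was -0.01. The most abundant were eno1 (GRMZM2G064302), an enolase, at 932 ± 232 CPM in L100 and 618 ± 216 CPM in wild type, and Pgk-2 (GRMZM2G382914), named as a phosphoglycerate kinase, at 727 ± 109 CPM in L100 and 526 ± 202 CPM in wild type. Of 5 Calvin cycle genes 4 were higher, with a median of 0.15; rbcs1 (GRMZM2G098520) and rbcS (GRMZM2G113033), for the small subunit of Rubisco, were at 5770 ± 1082 and 3437 ± 538 CPM in L100, against 5195 ± 1147 and 2748 ± 570 CPM in wild type. No tested gene of either list was called by edgeR, DESeq2 or limma-voom or had an unadjusted p under 0.05.

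A list of 11 maize genes known for responses to low oxygen was drawn up after the values of gpc3 and gpc4 had been seen. All 11 were tested, 6 were higher and 5 lower in L100, none was called by edgeR, DESeq2 or limma-voom, and the median log2 fold change was 0.10. Of all tested genes 47.6% were higher in L100. At an unadjusted p under 0.05 there was 1 of 11, a share close to the 10.04% of all tested genes. It was, named after its values were seen, the sucrose synthase gene sus1 (GRMZM2G152908), at 74.0 ± 6.14 CPM in L100 and 22.7 ± 24.1 CPM in wild type. The most abundant genes of the list were eno1, given above, and phi1 (GRMZM2G065083), a glucose-6-phosphate isomerase, at 171 ± 14.9 CPM in L100 and 183 ± 84.6 CPM in wild type. The alcohol dehydrogenase gene adh1 (GRMZM2G442658), singled out after its values were seen, was at 7.27 ± 1.04 CPM in L100 and 10.5 ± 4.57 CPM in wild type (log2 fold change -0.53, edgeR adjusted p = 0.722). The more abundant adh2 (GRMZM2G098346), named beside it, went the other way. It was at 120 ± 54.2 CPM in L100 and 78.3 ± 56.7 CPM in wild type (log2 fold change 0.61, edgeR adjusted p = 0.766).

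The genes most like each copy were sought by the Pearson correlation of log2 CPM over the 6 libraries among 1207 other tested genes that had a symbol and averaged 10 CPM or more. For gpc3 these were gpc4 (0.995) and APE1 (GRMZM2G099367, 0.986), and for gpc4 they were gpc3 and hsp70-4 (GRMZM2G340251, 0.982), an HSP70 chaperone. APE1 was at 382 ± 75.2 CPM in L100 and 151 ± 72.6 CPM in wild type, and hsp70-4 at 1240 ± 239 CPM in L100 and 693 ± 249 CPM in wild type. Both were without overlap between the lines, as were 7.69% of all tested genes with L100 higher. Since both were picked by likeness to gpc3 and gpc4, which do not overlap, this is no separate result. For gpc1 they were cal2 (GRMZM2G067511, 0.990) and nfc103 (GRMZM2G023372, 0.915), for gpc2 pdi6 (GRMZM2G128171, 0.976) and NNR1 (GRMZM2G568636, 0.972), and for gpa1 VAP27-2 (GRMZM2G053273, 0.987) and Sal1 (GRMZM2G117935, 0.974). For GRMZM2G162845, among 1208 genes, they were COL10 (GRMZM2G012717, 0.987) and tua5 (GRMZM2G099167, 0.982), at a level where few counts set the pattern. With 6 libraries and this many genes high values are common, and the correlations are given as a description only.

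**Figure D5:**
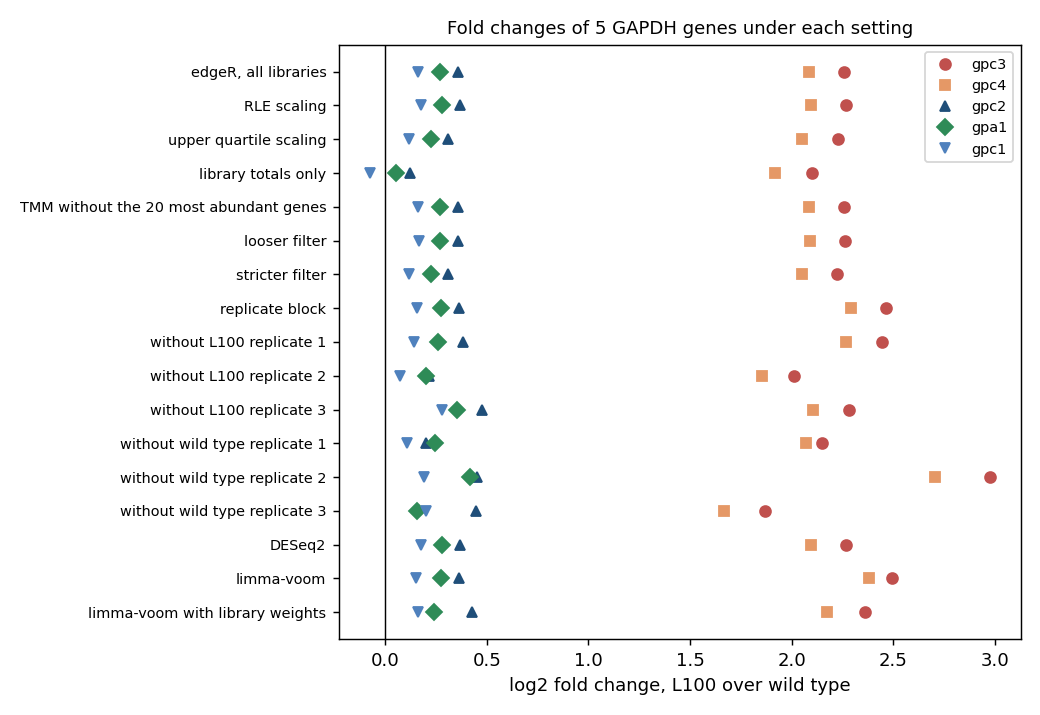
Log2 fold change of L100 over wild type (horizontal axis) of gpc1, gpc2, gpc3, gpc4 and gpa1 under each scaling, filter, tool and left-out library (rows). The points of gpc3 and gpc4 lie between 1.67 and 2.97 under every setting shown, and those of gpc1, gpc2 and gpa1 between -0.07 and 0.47.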

How the data were processed

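RNA sequencing of leaves gave 6 tables, 3 of L100 and 3 of wild type. Bowtie 0.12.2 and B73 RefGen_v3 are the aligner and build named, per the submitters' processing notes; how fragments were counted is not stated there. Per the file headers, the authors deposited an estimated count, an FPKM value and a gene length per gene. The estimated counts deposited were rounded to whole numbers; 0.300% of them differed from one by over 0.001. The authors' FPKM values served only as an alternative scale. Lengths, which the deposited files give with no other unit, were multiples of 3 for 88.7% of gene models.

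The lines were compared with edgeR 4.0.16 in R 4.3.3 (quasi-likelihood test, TMM, filterByExpr, no block, Benjamini-Hochberg over 18702 genes, threshold 0.05). DESeq2 1.42.0, limma-voom (limma 3.58.1), other scalings and filters, and each library left out were alternatives. All 6 genes passed the filter on low counts. Standard errors are the log2 fold change over the square root of F. Permutation tests were exact and two-sided (scipy 1.17.1). The edgeR step and the spread measure were tested on simulated data.

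Names came from a RefSeq table of a later assembly (Zm-B73-REFERENCE-NAM-5.0) used for names alone: 18774 gene IDs (47.4%) matched, 5 of the 6 GAPDH genes among them, and 2469 IDs had a usable symbol. Lists were matched by symbol; symbols of unrelated genes caught by a pattern were dropped by name, and a few genes are not reported here. Genes named are the 6, of each list the called members or else the 2 with the highest mean, and the 2 most alike per GAPDH gene; exceptions are stated. The genes and lists were chosen with earlier results of these data known. A floor of 3 counts is 0.251 to 0.487 CPM in a library, on TMM-scaled sizes; floors and intervals cover counting error only.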

Additional observations from a re-analysis of the deposited data

How the results depend on the processing

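Under 16 alternatives gpc2, gpc3, gpc4 and gpa1 were higher in L100 each time, and gpc1 in 15, the exception being library totals only (-0.0745). The number of the 6 genes called was 0 in edgeR with all libraries, 2 with DESeq2 (gpc3 2.27, gpc4 2.09 on the log2 scale) and 0 to 1 with 1 library left out, the 1 being gpc3 without wild type replicate 2. Log2 fold changes with 1 library left out ran from 0.07 to 0.28 for gpc1, 0.20 to 0.47 for gpc2, 1.87 to 2.97 for gpc3 (edgeR adjusted p 0.0432 to 0.490), 1.67 to 2.70 for gpc4 (0.0599 to 0.590), 0.16 to 0.42 for gpa1 and -0.62 to 0.53 for GRMZM2G162845. That gene also changed sign with the replicate block (0.26), limma-voom (0.79) and library weights (0.80, added after the data were seen), and the stricter filter removed it. Over all genes 156 were called by edgeR, 570 by DESeq2, 33 with the stricter filter and 0 to 222 with 1 library left out; 0 were called without L100 replicate 2 or 3 (1295 and 1282 at an unadjusted p under 0.05) and 6 without L100 replicate 1. The cause was not tested.

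Replicate numbers are shared between the lines, but same-numbered libraries did not deviate together in every pair (correlations 0.384, 0.348 and 0.0146), so they were not treated as pairs. Libraries with different numbers had correlations from -0.406 to 0.0740, so replicates 1 and 2 stood above these and replicate 3 did not. Whether same-numbered libraries share a batch was not tested. With the replicate number as a block edgeR called 5 genes over all and none of the 6; gpc3 had an adjusted p of 0.113 there and gpc4 of 0.147.

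The spread of gpc3 and gpc4 was smaller within L100 alone (0.42 and 0.41). With 1 library left out the SD ran from 0.14 to 0.20 for gpc1, 0.21 to 0.37 for gpc2, 1.15 to 1.71 for gpc3, 0.99 to 1.63 for gpc4, 0.18 to 0.27 for gpa1 and 0.59 to 1.14 for GRMZM2G162845. The plastidic over cytosolic log2 difference ran from -0.23 to 0.03 with 1 library left out, and was positive without wild type replicate 1 (0.0297) or 2 (0.00807), with gpc1 and gpc2 alone as denominator (0.0286) and with gpb1 added (0.17, added after the data were seen). Depth limits GRMZM2G162845 most, whose counts were 34 or fewer in every library.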
